A study of Drosophila melanogaster with 8 samples.

Results

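The response of Canton-S fly heads to rearing temperature was examined by setting the 2 libraries from flies raised at 25C against the 2 from flies raised at 19C, which are 4 of the 8 libraries sequenced. Canton-S (CantonS below) is a common laboratory strain of Drosophila melanogaster. The other 4 libraries come from Bully, a hyper-aggressive line of Canton-S origin, raised at the same temperatures, and serve here as the comparison line. Each library was made from total RNA of about 90 pooled whole heads of socially naive adults aged 6 days. The 2 libraries of a group are described as independent biological replicates. They are called a and b below, which are names only. Expression values are the deposited RPKM, reads scaled to gene length and library size. Of 15240 genes, the 8480 whose RPKM averaged 1 or more across all 8 libraries were tested.

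Flies do not regulate their body temperature, so development and metabolism run more slowly in the cold, and flies raised cool are larger as adults. Insulin-like peptides, released mainly from neurosecretory cells of the brain, couple nutrition and temperature to growth and metabolism. A head also holds fat body, muscle, cuticle, glia and circulating blood cells, so whole-head RNA mixes the nervous system with these tissues. Fewer cells of a type and less RNA per cell cannot be told apart in such samples.

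The libraries differed in size and in similarity before any temperature comparison. Effective library sizes, read from the steps between low RPKM values, were 107.5 and 117.8 M reads (M, mega) for CantonS 19C a and b, and 47.5 and 90.0 M for CantonS 25C a and b. Bully libraries lay between 79.9 and 114.8 M. For a 1 kb gene, 1 read corresponded to between 0.00849 and 0.0211 RPKM, far below the filter. The median absolute log2 difference between the replicates of a group was 0.084 in Bully 19C and 0.135 in Bully 25C, against 0.163 in CantonS 25C and 0.233 in CantonS 19C. CantonS 19C was therefore the least alike pair. Markers of neurons, photoreceptors, glia, muscle and fat body were present in every library. Markers of testis summed to at most 1.02 RPKM in the CantonS libraries and those of ovary to at most 0.846 RPKM.

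Most of the genes that passed the test were short and lower at 25C, and CantonS 19C b departed from the other libraries along gene length. Differences are on the scale of log2(RPKM + 0.5), as 25C minus 19C, from 1 limma model with 4 group means over the 8 libraries, two-sided, with Benjamini-Hochberg adjustment over all tested genes. The verbs rise and fall are used for genes with an adjusted p below 0.05, which are called passing. At 25C, 90 genes rose (1.06% of those tested) and 454 fell (5.35%), 544 in all or 6.42%. The median difference over all tested genes was -0.11. All 544 had CantonS libraries that did not overlap between temperatures, but so did 55.5% of all tested genes, 17.6% with 25C above and 37.9% with 25C below. Of the 544, 77 differed by at least 2-fold, 19 higher and 58 lower. Adjusted p-values gathered just under the threshold: 443 of the 544 were at 0.04 or above, and the smallest was 0.0274. At a threshold of 0.1 there were 1703 genes.

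The number of genes that passed depended on single libraries and on the scaling. It was 0 without CantonS 19C b, CantonS 25C a, Bully 25C a or Bully 25C b, 6 without Bully 19C a or Bully 19C b, 955 without CantonS 25C b and 2261 without CantonS 19C a. Rescaling by medians of ratios, which moved the median of all genes by 0.113, left 0 genes at the threshold and 2537 at an unadjusted p under 0.05, against 2706 as deposited. Quantile normalization moved that median by 0.102 and left 17 genes, of which 47.1% were lower at 25C, against 83.5% as deposited. The counts below are those of the deposited scale, and each direction stated for a gene list was checked under these rescalings.

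Gene length ordered the differences. Lengths, as the union of exons in the reference annotation, were found for 8355 of the tested genes. Genes were split by length into 5 classes of equal number. In the shortest class, up to 1137 bp, the median difference was -0.39, and 2 genes rose and 235 fell. In the longest class, from 4254 bp, it was 0.25, and 48 rose and 5 fell. The intermediate classes gave -0.27, -0.13 and -0.02 in order of length. The trend ran through individual libraries. In the shortest class the median deviation from the gene mean was 0.40 in CantonS 19C b and -0.22 in CantonS 25C a, with 0.09 in CantonS 19C a and -0.05 in CantonS 25C b. In the longest class CantonS 19C b was at -0.30, while the other 3 CantonS libraries lay between 0.01 and 0.12. Without CantonS 19C b the shortest and longest classes differed less, at -0.24 and 0.09. In Bully the same classes had medians of 0.12 and -0.02. In CantonS the 19C libraries were also the larger pair by depth. Depth and length trend were not separated from temperature by the design, and their part in the differences was not tested.

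**Figure D1:**
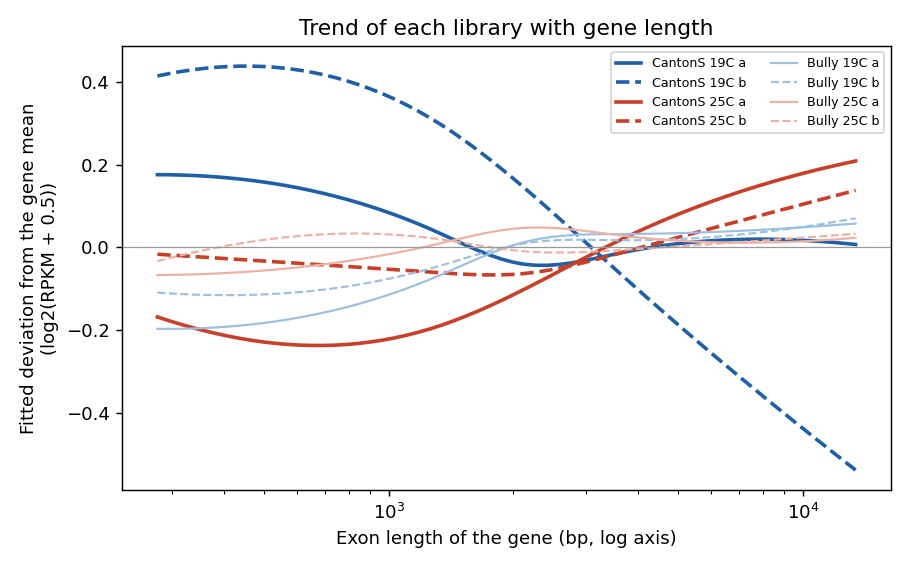
Fitted deviation of each library from the gene mean, on the log2(RPKM + 0.5) scale, against exon length in bp on a log axis, with 1 line per library. CantonS 19C b, the dashed dark blue line, runs from above 0 in short genes to below 0 in long genes, and CantonS 25C a, the solid red line, runs the opposite way with a smaller range.

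To separate changes that remain without these trends, each library's smooth trend with log2 length was subtracted and the model refitted, and the same was done for the trend with abundance. With the length trend removed, 27 of 8355 genes passed (0.323%), 11 higher and 16 lower, and the median differences of the shortest and longest classes were -0.12 and -0.09. Of the 538 genes that had passed as deposited and have a length, all kept their sign, 476 had a smaller difference, and 413 had an adjusted p below 0.1. Removing the abundance trend left 383 genes (4.52%), 62 higher (0.731%) and 321 lower (3.79%), of which 376 had passed as deposited. The genes that rose as deposited had a median length of 4612.5 bp and those that fell 1115 bp, against 2119 bp over all tested genes.

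**Figure D2:**
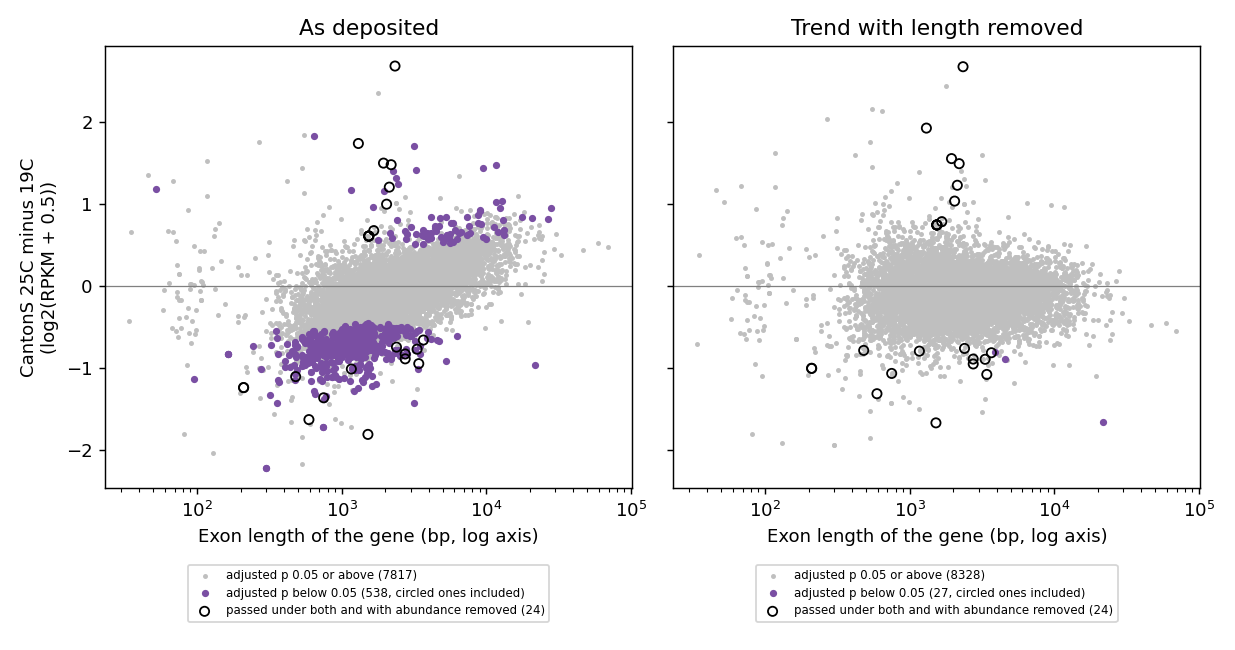
Difference between CantonS 25C and 19C (log2(RPKM + 0.5)) against exon length in bp on a log axis, 1 point per gene, as deposited on the left and after subtraction of the length trends on the right. Purple points and open circles have an adjusted p below 0.05 (538 on the left, 27 on the right), and the 24 open circles passed on both sides and with the abundance trend removed.

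Across the 3 fits, 24 genes passed with the same sign, 11 higher and 13 lower at 25C, or 0.287% of the genes with a length. Several share a transcript or exons, so these are 20 distinct sets of values, among which those of CG3790 and CR43469 differ by a constant ratio. They include 2 enzymes of the melanin and beta-alanine pathways among the rises, and an insulin-like peptide, a fat body product and a storage protein among the falls. Their median length was 1603.5 bp. Adjusted p-values from limma lay between 0.0274 and 0.0429 as deposited and between 0.0418 and 0.0492 with the length trend removed. The number was 0 under median-of-ratios rescaling and 0 without CantonS 25C a, CantonS 19C b or any 1 of the 4 Bully libraries, 82 when CantonS 19C a was left out and 513 when CantonS 25C b was. At a threshold of 0.1 in each fit it was 691. The spread behind these tests was estimated over all 4 groups, and Bully replicates were closer to each other than CantonS ones. In a fit of the CantonS libraries alone 4 genes passed as deposited. Of the 24, only proPO-A1, CG10621 and Obp99b were among them. Each of the 24 kept its direction when any single library was left out. That follows from their CantonS groups not overlapping and is no independent support.

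**Figure D3:**
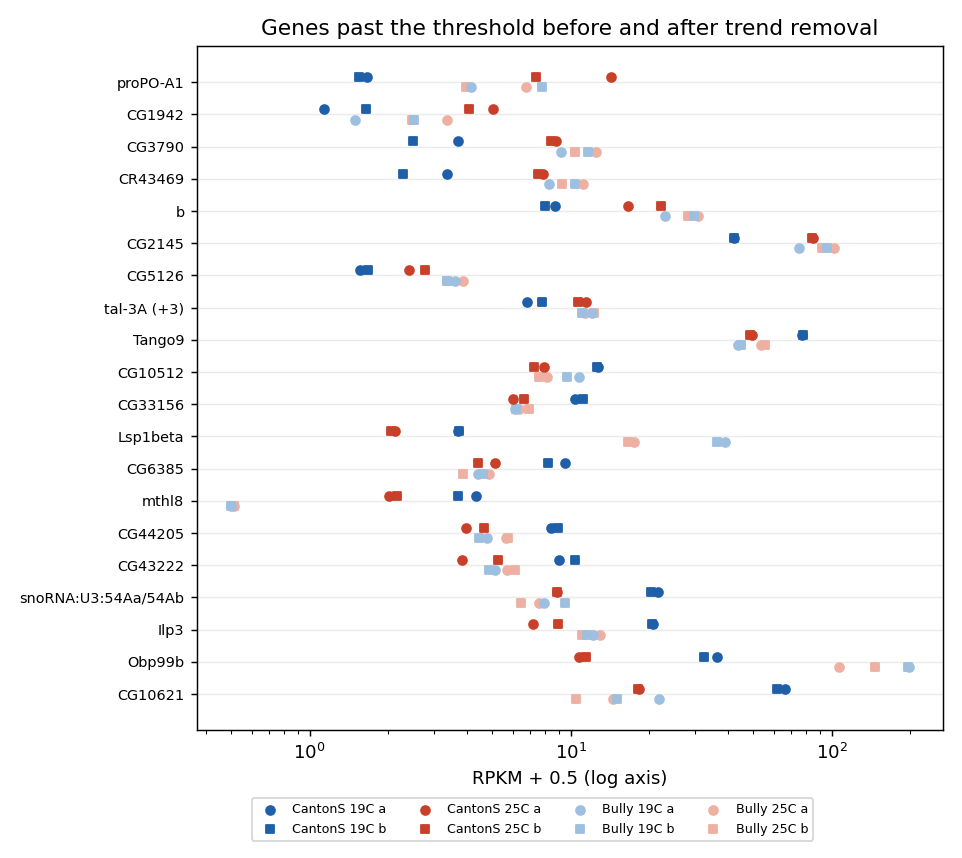
RPKM + 0.5 on a log axis in each of the 8 libraries for the genes that passed in all 3 fits, 1 row per distinct set of values, with dark points for CantonS and light points for Bully, blue for 19C and red for 25C. In every row the dark red and dark blue points do not overlap, and in most rows the dark blue CantonS 19C points lie outside the other 6.

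Among the rises, the largest was in proPO-A1 (now PPO1), a prophenoloxidase that crystal cells, a class of blood cell, use to make melanin. It stood at 1.16 and 1.05 RPKM at 19C and at 13.8 and 6.86 RPKM at 25C. The temperatures did not overlap, and the 25C libraries differed from each other by more than the 19C ones. The rise was 9.36-fold on mean RPKM, or 2.68 ± 0.38 on the log2 scale (standard error of the difference, here and below; 2 libraries a group; limma adjusted p = 0.034), and 2.67 with the length trend removed. CG1942 (Dgat2), which encodes a diacylglycerol acyltransferase that completes triglyceride synthesis, was listed at 0.638 and 1.14 RPKM at 19C and at 4.55 and 3.59 RPKM at 25C. Its levels were low at 19C and did not overlap those at 25C, a difference of 1.73 ± 0.28.

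The genes b and CG3790, which passed in all 3 fits, and e, which passed as deposited, act on beta-alanine, and t, another gene of its handling, did not pass. Beta-alanine is joined to dopamine in cuticle tanning and to histamine, the photoreceptor transmitter, in glia. The gene b (black), which makes beta-alanine from aspartate, had 8.24 and 7.48 RPKM at 19C and 16.2 and 21.7 RPKM at 25C. All 25C values lay above all 19C values, and the rise was 1.2 ± 0.18 (limma adjusted p = 0.0372). CG3790 (Balat), a beta-alanine transporter, stood at 3.22 and 2.00 RPKM at 19C and at 8.28 and 7.92 RPKM at 25C, without overlap, for a rise of 1.5 ± 0.20. The antisense gene CR43469 covers 98.5% of its exon bases on the opposite strand and kept a constant ratio to it across libraries, so their reads cannot be told apart here. The gene e (ebony), which joins beta-alanine to amines, had 8.80 and 7.49 RPKM at 19C and 28.8 and 26.4 RPKM at 25C. It rose by 1.70 ± 0.28 (adjusted p = 0.0375), a 3.39-fold change, and its difference with the length trend removed was 1.60 (adjusted p = 0.0519), so it is not among the 24. The gene t (tan), which splits these conjugates again and was chosen after its values were seen, did not pass, with 36.9 and 40.6 RPKM at 19C and 35.0 and 44.8 RPKM at 25C (0.03 ± 0.16, adjusted p = 0.903). The 26 biogenic amine genes tested cover enzymes, transporters and receptors. Of the 26, e and b rose, against 1.06% of all tested genes, and 0 fell. The median was 0.02, with 12 of the 26 negative.

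The remaining rises were smaller. CG2145 had 41.9 and 41.8 RPKM at 19C and 84.1 and 83.6 RPKM at 25C, near-identical replicates at each temperature with a 2-fold step between them (0.99 ± 0.16, adjusted p = 0.0375). CG5126 rose by 0.67 ± 0.13 from levels of 1.06 and 1.18 RPKM. The genes tal-AA, tal-1A, tal-2A and tal-3A, which are open reading frames for short peptides on 1 transcript, carry the same values, 6.29 and 7.28 RPKM at 19C and 11.0 and 10.1 RPKM at 25C, and count as 1 rise of 0.61 ± 0.13. In the fit with the length and abundance trends removed together, the adjusted p of CG5126 was 0.0536.

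Among the falls, CG10621 had the largest difference of the 13 genes. It stood at 65.6 and 61.5 RPKM at 19C and at 17.8 and 17.7 RPKM at 25C, far apart beside the spread of either pair, a fall of 1.81 ± 0.21 on the log2 scale (limma adjusted p = 0.0274). Obp99b, an odorant-binding protein made in fat body of the head, had 36.0 and 31.9 RPKM at 19C against 10.3 and 10.9 RPKM at 25C, a 3.20-fold lower mean at 25C (-1.63 ± 0.17). The U3 small nucleolar RNA genes snoRNA:U3:54Aa and snoRNA:U3:54Ab, whose RNA guides early cleavage of ribosomal RNA precursors, share 1 set of values, with 21.1 and 19.9 RPKM at 19C and 8.41 and 8.36 RPKM at 25C (-1.24 ± 0.14). Short RNAs are captured unevenly by standard libraries, so these levels are relative.

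Several falls were in metabolic and storage genes. Lsp1beta, a larval serum protein that stores amino acids, was low in CantonS, at 3.21 and 3.23 RPKM at 19C and 1.63 and 1.56 RPKM at 25C, without overlap (-0.83 ± 0.11). CG6385 (Sardh), a sarcosine dehydrogenase of 1-carbon metabolism, went from 9.05 and 7.66 RPKM to 4.64 and 3.92 RPKM (-0.89 ± 0.15). CG33156 (Nadk1b), an NAD kinase that makes NADP, went from 9.91 and 10.7 RPKM to 5.53 and 6.12 RPKM (-0.77 ± 0.12). In each of these 3 genes the pairs were separate, and mean RPKM was 1.77- to 2.02-fold lower at 25C. CG43222 (MtnF), a metallothionein that binds metal ions, had 8.51 and 9.90 RPKM at 19C and 3.35 and 4.75 RPKM at 25C (-1.11 ± 0.16), and it is the gene of the 24 with the highest adjusted p once the length trend is removed, at 0.0492. CG10512 fell by 0.75 ± 0.12.

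The last 3 falls were in mthl8, Tango9 and CG44205. The receptor gene mthl8, of the methuselah-like family, had 3.86 and 3.21 RPKM at 19C and 1.51 and 1.66 RPKM at 25C (-0.95 ± 0.13), while Bully libraries held at most 0.0138 RPKM. Tango9, named for a screen on secretion and Golgi organization, had 76.6 and 77.4 RPKM at 19C and 48.9 and 48.2 RPKM at 25C (-0.66 ± 0.12). It shares exon bases with 2 genes on the opposite strand. CG44205, annotated as an antisense RNA, fell by 1.01 ± 0.12 and overlaps CG1688 over 73.9% of its exon bases. The sources used here do not say whether counting used strand. On opposite strands, CG3790 and CR43469, and Cyp9c1 and CR43787, kept constant ratios across libraries, as counting without strand would give. Reads of the overlapping genes above therefore cannot be assigned.

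Insulin-like peptides were lower at 25C. Of the 8 in the genome, 4 passed the filter on low values, and 3 of those fell, against 5.35% of all tested genes. Ilp3, a hormone of the insulin-producing cells, had 20.2 and 20.1 RPKM at 19C and 6.66 and 8.49 RPKM at 25C, and fell by 1.36 ± 0.15 (limma adjusted p = 0.0274; -1.07 with the length trend removed, adjusted p = 0.0418). Ilp5, from the same cells, had 11.5 and 17.1 RPKM at 19C and 5.85 and 6.25 RPKM at 25C. Its groups did not overlap although its 19C libraries differed by about the size of its 25C level, and it fell by 1.15 ± 0.17 (adjusted p = 0.0372; -0.83 and adjusted p = 0.0519 without the length trend). Ilp2, the most highly expressed of the family here, had 116 and 162 RPKM at 19C and 65.8 and 70.4 RPKM at 25C, a fall of 1.01 ± 0.19 (adjusted p = 0.0411; -0.70 and 0.0612 without the length trend). All 3 are short genes, and CantonS 19C b was the higher 19C library for Ilp2 and Ilp5 but not for Ilp3.

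Ilp6, which is made mainly by fat body, did not pass, at 6.07 and 6.38 RPKM against 5.09 and 4.72 RPKM (-0.32 ± 0.12, adjusted p = 0.123). The median difference of the 4 peptides was -1.08, against -0.11 over all tested genes, and it stayed negative under each rescaling, at -0.95 by medians of ratios and -0.86 by quantiles, and at -0.82 without CantonS 19C b. In Bully their median was -0.03. Downstream of the peptides, 2 of 25 tested genes of insulin and TOR signalling fell and 0 rose, near the 5.35% of all tested genes that fell. The alpha-glucosidase gene tobi, a target of brain insulin-producing cells, had 50.2 and 46.6 RPKM at 19C and 27.7 and 26.6 RPKM at 25C (-0.82 ± 0.16, adjusted p = 0.0411). Thor, the translation repressor 4E-BP, had 22.0 and 32.3 RPKM at 19C and 17.02 and 14.0 RPKM at 25C (-0.77 ± 0.19, adjusted p = 0.0492). Neither passed once the length trend was removed, at -0.79 for tobi (adjusted p = 0.0544) and -0.48 for Thor (adjusted p = 0.122). The median of this list was 0.15 as deposited and -0.03 with the length trend removed.

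Blood cell markers were higher at 25C. Of 12 listed hemocyte genes, 10 were tested. The median difference was 0.92, against -0.11 for all genes. In 7 of the 10 both 25C libraries lay above both 19C libraries, against 17.6% of all tested genes. Of the 10, 5 rose, against 1.06% of all tested genes, and 0 fell. The 5 are proPO-A1 above; proPO45 (PPO2), the partner prophenoloxidase of crystal cells; Hml, a clotting factor of hemocytes; nimC1, a phagocytic receptor; and Ppn, an extracellular matrix protein. Hml had 1.82 and 1.47 RPKM at 19C and 7.19 and 4.04 RPKM at 25C (1.47 ± 0.30). Its counterpart nimC1 had 1.76 and 2.12 RPKM at 19C and 6.70 and 5.33 RPKM at 25C (1.41 ± 0.24). In both genes the groups were separate, and CantonS 25C a was above CantonS 25C b, as it was in the other 3. Ppn differed by 1.43 ± 0.26 and proPO45 by 1.40 ± 0.27.

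The median of the 10 hemocyte genes was 0.65 once the length trend was removed, and proPO-A1 alone passed. The adjusted p was 0.053 for nimC1 and proPO45, 0.0702 for Ppn and 0.0913 for Hml. The median was 1.04 by medians of ratios, 1.01 by quantiles and 0.90 without CantonS 19C b. The summed level of all 12 genes was 73.8 and 69.3 RPKM in CantonS 19C and 126.3 and 96.2 RPKM in CantonS 25C, so the groups did not overlap. Bully libraries held 106 to 131 RPKM, within or above the range of CantonS 25C. Whether blood cell content or expression per cell changed was not tested.

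Glial genes moved less. The 12 glial markers had a median of 0.27 (0.16 with the length trend removed). Of the 12, 4 rose, against 1.06% of all tested genes, and 0 fell. Beside e, they were bnb, a glial protein at 37.9 and 39.4 RPKM at 19C and 62.9 and 59.95 RPKM at 25C (0.66 ± 0.14), and moody and Gli, which build the blood-brain barrier. For moody the values were 5.44 and 5.397 RPKM against 8.47 and 8.10 RPKM (0.57 ± 0.11), so the replicates of each pair were close. Gli differed by 0.67 ± 0.16. Of these 4, 0 passed without the length trend, against 27 of the 538 genes with a length that had passed as deposited. The adjusted p-values of the 4 were 0.0519 for e, 0.0612 for bnb, 0.0731 for moody and 0.112 for Gli. The summed glial level was 431 and 486 RPKM in CantonS 19C and 597 and 534 RPKM in CantonS 25C.

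Neuronal and photoreceptor markers gave 0 calls, while 2 of 17 muscle genes and 3 of 10 fat body genes passed, against 6.42% of all tested genes. Of 15 neuronal and 14 photoreceptor markers 0 passed in the fit as deposited. There, 3 and 1 had an unadjusted p under 0.05, against 2706 of all 8480 tested genes. Neuronal markers summed to 429 and 294.6 RPKM in CantonS 19C and to 412.5 and 391.1 RPKM in CantonS 25C, so that CantonS 19C b was the lowest of the 4. Of 17 tested muscle genes bt rose and up fell. The giant muscle gene bt (projectin) had 2.22 and 1.74 RPKM at 19C and 4.19 and 4.33 RPKM at 25C (0.95 ± 0.16), and its difference with the length trend removed was 0.18 (adjusted p = 0.561). The troponin T gene up had 58.8 and 68.7 RPKM against 30.003 and 41.0 RPKM (-0.85 ± 0.20) and stood at -0.88 with the length trend removed (adjusted p = 0.0612). Of 10 fat body genes, Lsp1beta and Obp99b fell and CG15828 (Apoltp), a lipid transfer protein, rose by 0.68 ± 0.13, or 0.13 with the length trend removed. The fat body median was -0.35 and turned to 0.07 without CantonS 19C b.

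Immune-induced peptide genes were lower at 25C. Of 45 tested genes for antimicrobial and other infection-induced products, 9 fell, against 5.35% of all tested genes, and 0 rose. In 28 of the 45 all 25C values lay below all 19C values, against 37.9% of all tested genes. The median difference was -0.70, and it was -0.42 with the length trend removed, -0.51 by quantiles and -0.64 without CantonS 19C b. Bomanins, short secreted peptides induced by Toll signalling, led the list. IM2 (BomS2) had 825 and 810 RPKM at 19C and 367 and 361 RPKM at 25C (-1.17 ± 0.15, adjusted p = 0.034). CG5791 (BomBc3) had 330 and 358 RPKM against 141 and 149 RPKM (-1.25 ± 0.19). CG5778 (BomT3) had 330 and 273 RPKM against 105 and 137 RPKM (-1.32 ± 0.19). In each of the 3 the lower 19C library stood far above the higher 25C library. Other members that fell were CG15067 (BomBc2, -1.14 ± 0.21), Drsl5, a drosomycin-like peptide (-1.15 ± 0.26), and the peptidoglycan-sensing gene PGRP-SB1 (-0.92 ± 0.18).

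IM18 fell by 1.72 ± 0.32 and carries the same values as CG10332, with which it shares its exons. Without the length trend 0 of the 45 genes passed, against 0.323% of all genes with a length. IM2 and CG5791 were nearest, with adjusted p = 0.0519. The median of the 45 in Bully was 0.06. These genes are short, with a median length of 739 bp, and lie where the fitted deviation of CantonS 19C b was close to its highest.

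Ribosomal protein and respiratory genes had negative medians as deposited, and more of them fell than the 5.35% of all tested genes. Among cytoplasmic ribosomal proteins 22 of 79 fell and 0 rose. Every one of the 79 had a negative difference, with a median of -0.66. RpS27 had 250 and 275 RPKM at 19C and 123 and 130 RPKM at 25C (-1.05 ± 0.15, adjusted p = 0.034). RpL37A had 337 and 358 RPKM against 159 and 196 RPKM (-0.97 ± 0.16). Both pairs were far apart beside their spread. RpS2 differed more in size, at -1.28 ± 0.30, with 699 and 542 RPKM against 204 and 313 RPKM. RpL41, the shortest ribosomal protein, was listed at -1.33 ± 0.32.

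The mitochondrial counterparts followed the same sign. Of 75 mitochondrial ribosomal proteins 15 fell and 0 rose, with a median of -0.51. For mRpS6 the values were 9.66 and 8.57 RPKM at 19C and 4.44 and 4.63 RPKM at 25C (-0.93 ± 0.12), without overlap, and mRpL52 fell by 0.97 ± 0.18. Of 69 genes of oxidative phosphorylation 9 fell and 0 rose, with a median of -0.55. They included CG4692 (ATPsynF), an ATP synthase subunit at 76.9 and 82.5 RPKM at 19C and 26.9 and 46.3 RPKM at 25C (-1.16 ± 0.23), and CoVIb (COX6B), a cytochrome oxidase subunit (-0.85 ± 0.18). Proteasome genes gave 3 falls of 34 and translation factors 1 of 30, counts near or below the 5.35% of all tested genes.

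Once the length trend was removed, 0 genes of these 5 lists passed, although their medians stayed negative. Only 0.323% of all genes with a length passed in that fit, so the 0 is not read as a result about these lists. The median was -0.44 for cytoplasmic ribosomal proteins, -0.23 for mitochondrial ones and -0.35 for oxidative phosphorylation, beside -0.11 for all genes. At an adjusted p below 0.1 in that fit, 871 of all 8355 genes were lower. So were 27 of the 79 cytoplasmic ribosomal proteins, 9 of the 75 mitochondrial ones, 14 of the 69 genes of oxidative phosphorylation, 5 of the 34 proteasome genes and 3 of the 30 translation factors, and 0 of these lists' genes were higher. Quantile normalization brought the cytoplasmic median to -0.23 and removal of both trends to -0.29. In Bully the medians of these 3 lists were 0.23, 0.11 and 0.14. Their genes are short, with median lengths of 910, 790 and 848 bp, and the part of length in their differences was not tested. Without CantonS 19C b and without the length trend, their medians in CantonS were -0.41, -0.15 and -0.23, beside -0.07 for all genes. Ribosome biogenesis genes, which are longer at a median of 1854 bp, gave 0 calls of 22 and a median of -0.21. Of the 22, 4 had an unadjusted p under 0.05, against 2706 of all 8480 tested genes.

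**Figure D4:**
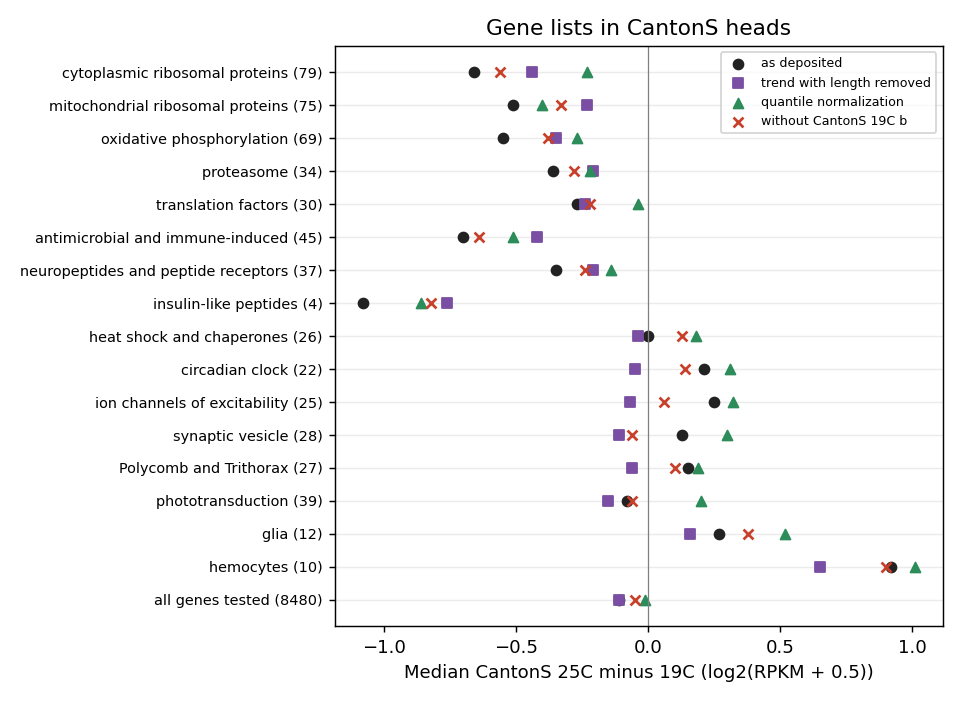
Median difference between CantonS 25C and 19C (log2(RPKM + 0.5)) over the tested members of each gene list, whose number is in parentheses, as deposited, with the length trend removed, after quantile normalization and without CantonS 19C b. Insulin-like peptides, immune-induced genes and ribosomal proteins stay below 0 and hemocyte and glial genes above 0 under all 4, while the clock, ion channel, synaptic and Polycomb lists fall below 0 when the length trend is removed (the synaptic list also without CantonS 19C b), and the chaperone and phototransduction lists also take both signs.

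Some neuropeptide genes fell as deposited, and listed genes for excitability gave 0 calls. Of 37 neuropeptide and peptide receptor genes 6 fell, against 5.35% of all tested genes, and 0 rose. The median was -0.35 (-0.21 with the length trend removed). Dsk, a satiety peptide related to cholecystokinin, had 46.3 and 42.3 RPKM at 19C and 24.5 and 23.5 RPKM at 25C (-0.87 ± 0.16). The feeding peptide gene hug had 43.6 and 51.5 RPKM against 17.7 and 26.01 RPKM (-1.13 ± 0.22). CCHa2, a nutrient-dependent peptide that acts on insulin-producing cells, had 68.6 and 79.7 RPKM against 42.3 and 38.6 RPKM (-0.86 ± 0.18). None of the 3 overlapped between temperatures. Mip fell by 0.87 ± 0.20, capa by 0.64 ± 0.14 and Fmrf by 0.51 ± 0.12. With the length trend removed 0 of the 6 passed, against 27 of the 538 genes with a length that had passed as deposited. The adjusted p-values of the 6 ran from 0.0612 for hug and CCHa2 to 0.161 for capa.

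In 25 ion channel genes and 28 synaptic vesicle genes there were 0 calls as deposited. Of these, 5 and 2 had an unadjusted p under 0.05, against 2706 of all 8480 tested genes. The medians were 0.25 and 0.13, and they became -0.07 and -0.11 with the length trend removed. The potassium channel gene SK had 9.06 and 5.30 RPKM at 19C and 12.6 and 11.7 RPKM at 25C (0.76 ± 0.21, adjusted p = 0.0598), and Syt1, the calcium sensor of vesicle release, had 42.3 and 24.3 RPKM against 52.6 and 46.2 RPKM (0.61 ± 0.23, adjusted p = 0.119). In both, CantonS 19C b was the lowest of the 4 libraries, well below its replicate. Sh, another potassium channel, was at 0.62 as deposited and -0.08 with the length trend removed, and the chromatin remodeller kis went from 0.65 to -0.01. These are long genes, at 22801 bp for Sh and 19229 bp for kis. The 22 clock genes gave 0 calls, with 11 at an unadjusted p under 0.05, against 2706 of all 8480 tested genes. Their median turned from 0.21 to -0.05 with the length trend removed. Pdf, the output peptide of clock neurons, had 174 and 214 RPKM at 19C and 124 and 138 RPKM at 25C and did not pass (-0.56 ± 0.16, adjusted p = 0.0648). Nf1, which links the clock to rest and activity, was at 0.82 ± 0.22 (adjusted p = 0.0561). Of 21 listed genes of thermosensation and TRP channels 7 were tested, and TrpA1, Gr28b and Ir21a were among those below the filter. Of the 7 tested, 0 passed, with differences between -0.17 and 0.12 and 0 at an unadjusted p under 0.05.

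Stress genes changed in few members. Of 26 heat shock and chaperone genes, Hsromega, a long noncoding RNA induced by heat, fell, against 5.35% of all tested genes, and 0 rose. It had 58.5 and 47.1 RPKM at 19C and 22.5 and 31.4 RPKM at 25C (-0.97 ± 0.20, adjusted p = 0.0429). With the length trend removed it was at -1.66 (adjusted p = 0.0418), but it did not pass with the abundance trend removed (adjusted p = 0.052). Of 11 genes of cold and humoral stress, nahoda rose (0.77 ± 0.17) and Thor fell, against 6.42% of all tested genes called. Without the length trend neither passed, at 0.47 for nahoda (adjusted p = 0.0915) and -0.48 for Thor (adjusted p = 0.122). The humoral factors TotC and TotM, induced by stress, varied too much between replicates to pass. TotC had 10.03 and 19.8 RPKM at 19C and 54.8 and 27.6 RPKM at 25C, and TotM had 2.35 and 8.24 RPKM against 41.0 and 7.16 RPKM, with overlap in TotM alone.

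In metabolism, the eye and the other lists of this paragraph, each list gave at most 2 calls, all of them falls. Over all tested genes 5.35% fell, and counts this small are not read as a result about a list. The glucokinase-like gene Hex-C had 72.0 and 58.2 RPKM at 19C and 28.7 and 36.8 RPKM at 25C (-0.98 ± 0.17), and fbp, which reverses a step of glycolysis, fell by 0.65 ± 0.14. They were the 2 of 23 glycolysis genes that passed. Among 39 phototransduction genes ninaA, the rhodopsin chaperone, fell from 96.6 and 100 RPKM to 48.1 and 61.8 RPKM (-0.85 ± 0.16), and its exons lie within those of a gene on the opposite strand. Among 24 eye pigment genes se and cl, both of pteridine synthesis, fell by 0.83 ± 0.19 and 0.78 ± 0.18. A list of 14 photolyase and DNA repair genes gave 2 falls. The photolyase gene phr, which repairs ultraviolet damage, fell by 0.64 ± 0.15, from 18.5 and 21.5 RPKM to 11.2 and 14.2 RPKM. Of 28 glutathione transferases GstS1 fell (-0.64 ± 0.12), and of 26 odorant-binding proteins Obp83ef fell beside Obp99b (-0.998 ± 0.18). Of 62 cytochromes P450 0 passed, with 12 at an unadjusted p under 0.05, against 2706 of all 8480 tested genes. None of these genes except Obp99b passed with the length trend removed.

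Genes tied to sex were included because the labels used here do not give the sex of the pooled flies. Of 14 tested, 1 rose and 2 fell, against 1.06% and 5.35% of all tested genes, and counts this small are not read as a result. The median difference of the 14 was -0.08, against -0.11 over all tested genes. Yp1 and Yp3, yolk proteins of females, fell by 1.10 ± 0.24 and 0.62 ± 0.15. Sxl, the switch gene of sex determination, rose by 0.76 ± 0.15. Yp1 was low throughout, at 2.995 and 2.39 RPKM at 19C and 1.34 and 0.686 RPKM at 25C. None of the 3 passed once the length trend was removed. The share of females in each pool was not tested.

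Outside the lists, some of the largest differences, as marked for each gene below, were in genes that share values or exons with another gene. The signal recognition particle RNA genes 7SLRNA:CR42652 and 7SLRNA:CR32864 share 1 set of values, 289 and 143 RPKM at 19C and 38.5 and 48.5 RPKM at 25C (-2.22 ± 0.46, adjusted p = 0.0429). Rab5, a GTPase of early endosomes, had 183 and 213 RPKM at 19C and 63.0 and 84.0 RPKM at 25C (-1.43 ± 0.25), and stood at -1.54 with the length trend removed (adjusted p = 0.0519). Roc2, a RING protein of ubiquitin ligases, fell by 1.38 ± 0.27. CG18598 fell by 1.43 ± 0.31, and its exons lie within those of a gene on the opposite strand. CG42392 rose by 1.83 ± 0.44 from 2.23 and 0.314 RPKM to 4.92 and 4.63 RPKM, and its 19C libraries differed from each other by more than its 25C libraries did. CG42392 shares 26.2% of its exon bases with unc-104 on the same strand.

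A further 7 genes passed with the abundance trend removed but not as deposited. The 5 with the smallest p were nrv2, a sodium pump subunit of glia (0.64 ± 0.16 as deposited, adjusted p = 0.0509), CG42339 (-0.42 ± 0.11), CG3308 (0.53 ± 0.16), Mulk (-0.47 ± 0.12) and CG2003 (-0.50 ± 0.13). Their adjusted p-values as deposited lay between 0.0509 and 0.0705. With the length trend removed 0 genes passed that had not passed as deposited.

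In Bully, raised at the same temperatures, 2 genes passed (0.0236%, and 0.0239% with the length trend removed), and 272 had an unadjusted p under 0.05. They were Lsp1beta and tobi, both lower at 25C as in CantonS. Lsp1beta had 38.5 and 35.8 RPKM in Bully 19C and 17.05 and 16.1 RPKM in Bully 25C (-1.14), far above its CantonS levels. In Bully, tobi had 48.0 and 53.4 RPKM at 19C and 19.4 and 14.8 RPKM at 25C (-1.55). Of the 24 genes that passed in all 3 fits, 17 had the same sign in Bully, against 36.7% of all tested genes and 26.8% of the 544. Genes that share a set of values are counted separately here. In 6 of the 24 the Bully libraries separated in the same direction as in CantonS, in 5 in the opposite direction, and in 13 they overlapped. That makes 11 of 24 without overlap in either direction, against 41.7% of all tested genes. Obp99b was among the 6, at 197 and 195 RPKM in Bully 19C and 106 and 147 RPKM in Bully 25C.

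The difference between the lines in their temperature response was itself tested in the same model, and 0 genes passed. In this interaction 2018 genes had an unadjusted p under 0.05, and the smallest adjusted p was 0.0921. Of the 24 genes, 22 had an unadjusted p under 0.05 for the interaction. So had 517 of the 544 genes that passed in CantonS. Both sets were chosen for a small p in CantonS, and that same difference is part of the interaction. The 2 counts are therefore no independent support for a difference between the lines. The interaction was -1.38 ± 0.21 for Ilp3, 2.81 ± 0.54 for proPO-A1 and 1.71 ± 0.39 for e, with adjusted p-values of 0.0921, 0.0921 and 0.0934. It was 0.31 ± 0.16 for Lsp1beta (adjusted p = 0.267). The count rose to 903 when CantonS 19C a was left out and to 466 when CantonS 25C b was, and was 5 without Bully 25C b, so no difference between the lines is called here.

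**Figure D5:**
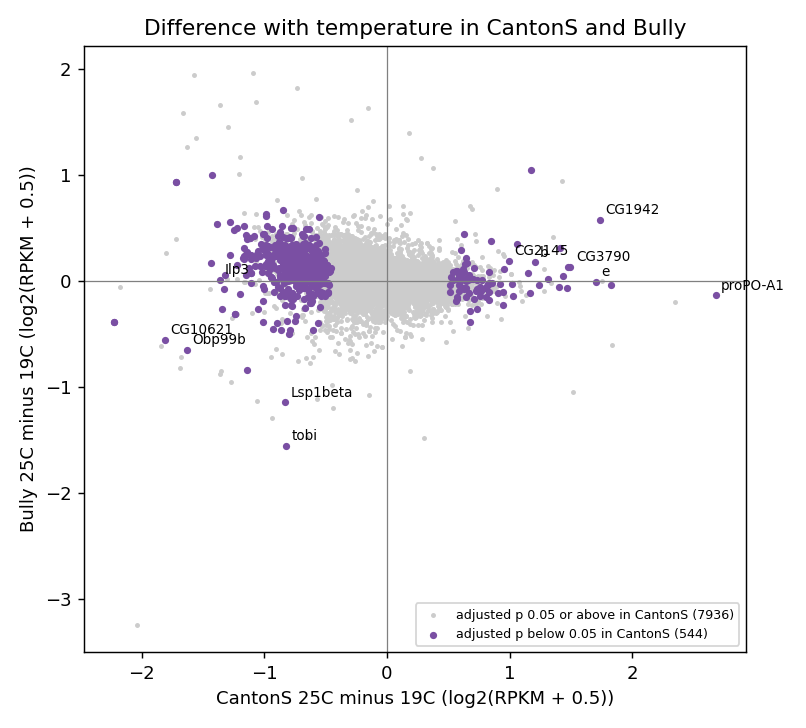
Difference between 25C and 19C in CantonS (horizontal) against the same difference in Bully (vertical), both on the log2(RPKM + 0.5) scale, 1 point per tested gene, with the 544 genes that passed in CantonS in purple. Most purple points spread along the horizontal axis and lie near 0 on the vertical one, while Lsp1beta and tobi are below 0 on both.

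Set against all other libraries, CantonS 19C stood apart for most called genes, and CantonS 25C for a smaller share. Both CantonS 19C libraries lay below the 6 others in 81 of the 90 genes that rose, against 9.63% of all tested genes, and above the 6 others in 387 of the 454 that fell, against 21.2%. Both CantonS 25C libraries lay above the 6 others in 25 of the 90 (27.8%, against 5.25% of all tested genes), and below them in 156 of the 454 (34.4%, against 11.5%). Among the 24 genes the first 2 counts were 10 of 11 and 11 of 13, with genes that share values counted separately. CG2145 shows the pattern, with 74.8 and 95.7 RPKM in Bully 19C and 102 and 91.5 RPKM in Bully 25C beside 84.1 and 83.6 RPKM in CantonS 25C and the lower values of CantonS 19C given above. For b, Bully libraries held 22.5 to 30.3 RPKM, above all 4 CantonS libraries, and for Ilp3 they held 10.5 to 12.4 RPKM, between the CantonS groups. These counts describe the same values that the test used and are no independent support for it.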

How the data were processed

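The authors deposited 1 table of RPKM per gene for 8 libraries. Per the submitters' processing notes, TopHat2 2.0.4 and edgeR 3.8.6 were used, with the builds dm3 and BDGP5. Whether library sizes were rescaled is not given in the sources used here. Columns carry group names without replicate numbers, so samples were not paired. P-values set each difference against the spread between replicate libraries, estimated over all 4 groups, Bully included.

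Genes that averaged 1 RPKM or more were fitted as log2(RPKM + 0.5) with limma 3.58.1 in R 4.3.3 (lmFit with 4 group means, eBayes with trend = TRUE, 4 residual and 4.5 prior degrees of freedom). The pseudocount shrinks differences of low genes. Trends were natural splines with 4 degrees of freedom of each library's deviation from the gene mean, on log2 exon length or on abundance. A gene passed all 3 fits if it was called with the same sign as deposited, without the length trend and without the abundance trend. Lengths came from an annotation of a later build (BDGP6), matched by symbol or synonym for 98.5% of tested genes, and may differ from those used by the authors. No sequence or coordinate is given. Effective library sizes came from steps between low values, of which 79.5% to 80.7% were whole reads within 0.02, and cover counting error only.

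The genes named are the 10 largest rises and falls among genes that passed without overlap, the 5 smallest p in each direction among the 24 genes that passed in all 3 fits, the 5 smallest p passing only without a trend, the insulin-like peptides, and up to 4 members of each list by test statistic, of which some are left unnamed. The rest of the 24, and Mip, Fmrf, Drsl5, PGRP-SB1, RpS2, RpL41 and t, are outside this rule and were chosen after their values were seen. Members and lists were chosen with earlier results of these data known. The fits were tested on simulated data. Alternatives were other pseudocounts and filters, 2 rescalings, trend removal, other priors and thresholds, CantonS libraries alone and each library left out.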

Additional observations from a re-analysis of the deposited data

How the results depend on the processing

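The 544 genes that passed became 2 without a filter on low values, 0 under median-of-ratios rescaling (2537 at an unadjusted p under 0.05 with limma), 17 under quantile normalization, 27 without the length trend, 26 without both trends, 1703 at an adjusted p below 0.1, 77 at 2-fold and 4 with CantonS libraries alone (1715 unadjusted). Leaving out 1 library gave 0 to 2261. Other pseudocounts, a minimum of 5 RPKM, removal of the abundance trend and other priors kept the count within 1.5 times. The interaction count of 0 became 1 without a filter, 280 at an adjusted p below 0.1 and 0 to 903 with 1 library left out. The 24 genes became 46 with 3 degrees of freedom in the trends, 58 with a pseudocount of 1, 691 at an adjusted p below 0.1, 0 under median-of-ratios rescaling and 0 to 513 with 1 library left out. For these 24, the rescaling and the threshold of 0.1 were chosen after seeing the data. Of single genes, Sh turned to -0.0803 without the length trend and -0.0731 without both trends, and kis to -0.0062 and -0.0009. The gene t turned negative with 1 library left out, within a range of -0.1414 to 0.2088. No paired analysis was possible because the columns carry no replicate numbers. Where 1 library of a group was left out, the lone sample is assumed to vary like the other groups. Why the counts changed was not tested, and such fits also hold fewer samples. With 2 libraries a group, a gene near the threshold cannot be placed firmly on either side of it.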
